A study of Saccharomyces cerevisiae with 279 samples.

Results

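HSP104, YDJ1, SIS1, FES1, SSE1 and SSE2 of budding yeast (Saccharomyces cerevisiae) encode the disaggregase Hsp104 and the co-chaperones that set the working cycle of cytosolic Hsp70. They were chosen by name, as 6 of the 7138 transcripts counted in the series (5906 of them nuclear protein-coding genes), and all 6 are among the 47 transcripts that the authors label as targets of the heat shock factor Hsf1. The study asked how stress moves mRNAs into sedimenting particles and onto or off ribosomes. In Sed-seq, a lysate was sequenced as Total RNA and, after centrifugation, as supernatant and pellet. In Polysome-seq, a lysate was separated on a sucrose gradient into free and ribosome-bound RNA. Each group held 2 lysates, except where stated, and the smallest two-sided p that an exact permutation test of 2 against 2 can give is 0.333, so tests were fitted across all transcripts.

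The laboratory strain BY4741 was grown in synthetic complete dextrose medium at 30 °C. In 2 Sed-seq experiments, here called the heat and the spike-in experiment, cell pellets were held for 10 min at 30 °C or 46 °C, with 42 °C also in the heat experiment. In a further one, cells were heated after a pretreatment with cycloheximide (CHX), which freezes elongating ribosomes, or after a mock pretreatment. Cells were also exposed for 15 min to ethanol (5, 10, 7.5 or 15%), for 30 min to 0.5% or 0.8% sodium azide at pH 6.8, or for 15 min to 10 mM dithiothreitol (DTT), each against its own mock. Strains yJB042 and yHG038 carry eIF3b and eIF4E respectively in a form that auxin degrades through a TIR1 ligase induced by β-estradiol. These were grown in rich medium, depleted or mock-treated with solvent, and then held at 30, 42 or 46 °C for 10 min. Each depletion rests on 1 strain, and the mock cells carry the same alleles. A set of 7 reporter strains, 1 lysate each, were sampled without stress. They carry Clover and mCherry reporters at LEU2, with Clover behind no hairpin (yHG010), a hairpin of graded strength (yHG005, yHG006, yHG007 and yHG008), the GCN4 leader (yHG026) or a mutated GCN4 leader (yHG027). Polysome-seq covered heat at 42 and 46 °C in BY4741, 0.8% azide and 7.5% ethanol.

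Hsp104 is a ring-shaped AAA+ ATPase that threads proteins out of aggregates, and it works on substrates that Hsp70 hands to it. Hsp70 binds and releases clients as it hydrolyses ATP. J-domain proteins such as Ydj1 and Sis1 deliver clients and start hydrolysis, while nucleotide exchange factors such as Fes1, Sse1 and Sse2 let ADP leave so that the client is released. In yeast, Hsf1 drives many of these genes, and Sis1 takes part in restraining Hsf1.

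HSP104 (YLL026W) lies on chromosome XII, positions 88623 to 91349 on the plus strand. YDJ1 (YNL064C, 505868 to 507097) and SIS1 (YNL007C, 618507 to 619565) are both on the minus strand of chromosome XIV. FES1 (YBR101C, 443821 to 444693) and SSE2 (YBR169C, 573915 to 575996) are on the minus strand of chromosome II, and SSE1 (YPL106C, 350194 to 352275) on that of chromosome XVI. These are the positions of the open reading frames in the R64 annotation given with the data, and no other open reading frame overlaps any of them. Transcript lengths ran from 964 nt for FES1 and 1257 nt for SIS1 to 1549 nt for YDJ1, 2282 nt for SSE1, 2285 nt for SSE2 and 2873 nt for HSP104. SSE1 and SSE2 are paralogs, so reads that match both were divided by estimation and their separate levels carry that uncertainty.

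HSP104 mRNA was also a target of the study's fluorescence imaging. The probe set holds 48 DNA oligonucleotides of 20 nt each, with 8 or 9 G or C bases and 960 nt in all. The first, a middle and the last probe are shown because they are the sequences by which this transcript was seen in single cells. Each is antisense to the mRNA and is written 5′ to 3′ in lower case, with no part set apart.
HSP104 probe 1: taggtaagggactgatccat
HSP104 probe 24: tcttctggcttagaatctct
HSP104 probe 48: tagtagcttcgtgatttggt
The stretches of HSP104 mRNA that they pair with are given here on the DNA alphabet.
HSP104 mRNA at probe 1: atggatcagtcccttaccta
HSP104 mRNA at probe 24: agagattctaagccagaaga
HSP104 mRNA at probe 48: accaaatcacgaagctacta

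Across the 279 libraries, the estimated counts per library ran from 1612859 to 37988236, and no 2 libraries were identical. Total libraries held 2426960 to 36895321 counts. The lowest count of any member in a Total library was 229 (FES1), and the lowest supernatant plus pellet count was 600 (also FES1). In the 60 Total libraries of BY4741, the marker genes URA3, LEU2 and MET17, which this strain lacks, had a median of 0 on the CPM scale, the share of a library's counts times 1e6, while ACT1 lay between 2112 and 4651 CPM. mRNA made up 51 to 95.3% of supernatant counts, the lowest share being in the eIF3b experiment, and the part of this in the results was not tested. A CPM value is a share of the RNA in a library. Since each lysate pools a whole culture, a change in fewer cells and a smaller change in every cell cannot be told apart.

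In unstressed cells, SSE1 was the most abundant of the 6 and SSE2 the least. The TPM scale corrects for the length of the counted sequence, here the open reading frame. Over 35 unstressed Total libraries, the median TPM was 626.5 for SSE1 (551.2 to 826.1), 246.6 for YDJ1 (91.3 to 444) and 163.8 for HSP104 (80.9 to 451.3). It was 131.1 for SIS1 (15.7 to 290.4), 70.3 for FES1 (38 to 151.6) and 38.3 for SSE2 (14.2 to 79.8). Only SSE1 had a range that did not touch that of its neighbour in this order, and every other pair of neighbours overlapped. SIS1 was lowest in the heat experiment, at 20.9 and 24.8 CPM, against 126 to 460 CPM in unstressed lysates of the other Sed-seq experiments. The reporter strains within that range (126 to 157 CPM) are plain shares of counts, and the other values are TMM-normalised. The heat experiment was the one sequenced in single reads, and its part in the low value was not tested. Levels are therefore compared only within an experiment.

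The proportion of a transcript in the supernatant (pSup) was high for all 6 without stress. Over 29 unstressed lysates the median pSup was 82.8% for HSP104 (73.4 to 89.6%), 82.7% for SSE2 (71.2 to 90.2%), 87.1% for SSE1, 89.7% for YDJ1, 90% for FES1 and 91% for SIS1. Long mRNAs sediment more, and the 3 longest members had the 3 lowest medians. pSup was therefore also expressed as natural log odds minus the mean of mRNAs of similar length, here called relative solubility. A positive value means that more of the transcript stayed in the supernatant than in mRNAs of its length. Most members were on the positive side without stress. Over 18 unstressed BY4741 lysates, median relative solubility was 0.52 for HSP104, 0.48 for SSE1, 0.31 for SIS1, 0.31 for YDJ1 and 0.21 for SSE2. FES1 had a median of -0.11. The ranges of SSE2 (-0.11 to 0.36) and FES1 (-0.32 to 0.25) crossed 0. In the 7 reporter strains pSup varied little, from 80.8 to 84.9% for HSP104 and from 89.5 to 92.2% for SIS1.

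Heat at 42 °C raised 5 of the 6 mRNAs, most of all that of the disaggregase. HSP104 stood at 474 and 507 CPM in the 30 °C lysates, at 3402 and 3476 CPM after 42 °C, and at 918 and 845 CPM after 46 °C. The 3 temperatures did not overlap. The log2 fold change at 42 °C was 2.81 ± 0.05 (SE), a 7.01-fold rise with an adjusted p of 5.63e-08 in edgeR's quasi-likelihood test. Members called numbered 5 of 6 against 6.65% of all transcripts.

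The nucleotide exchange factors FES1 and SSE2 followed HSP104 at 42 °C. FES1 went from 66 and 74.4 CPM to 267 and 266 (log2 1.92 ± 0.07), and SSE2 from 64.2 and 63.5 to 163 and 178 (1.42 ± 0.06). SSE1, the abundant paralog of SSE2, rose from 2241 and 2317 to 2799 and 2874 CPM, by only 0.32 ± 0.03. The J-domain gene SIS1 rose from 20.9 and 24.8 to 56.9 and 62.9 CPM (1.39 ± 0.16). The other J-domain gene, YDJ1, went from 146 and 183 to 195 and 210 CPM and did not pass (0.30 ± 0.19, edgeR adjusted p = 0.411). At 46 °C HSP104 alone passed, with 0.85 ± 0.05 (adjusted p = 3.29e-04), where 0.368% of all transcripts were called. With the replicate number as a block, 3 of 6 passed at 46 °C, adding FES1 (0.42 ± 0.06, adjusted p = 0.0167) and SIS1 (0.62 ± 0.09, adjusted p = 0.0346), against 0.544% of all.

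**Figure D1:**
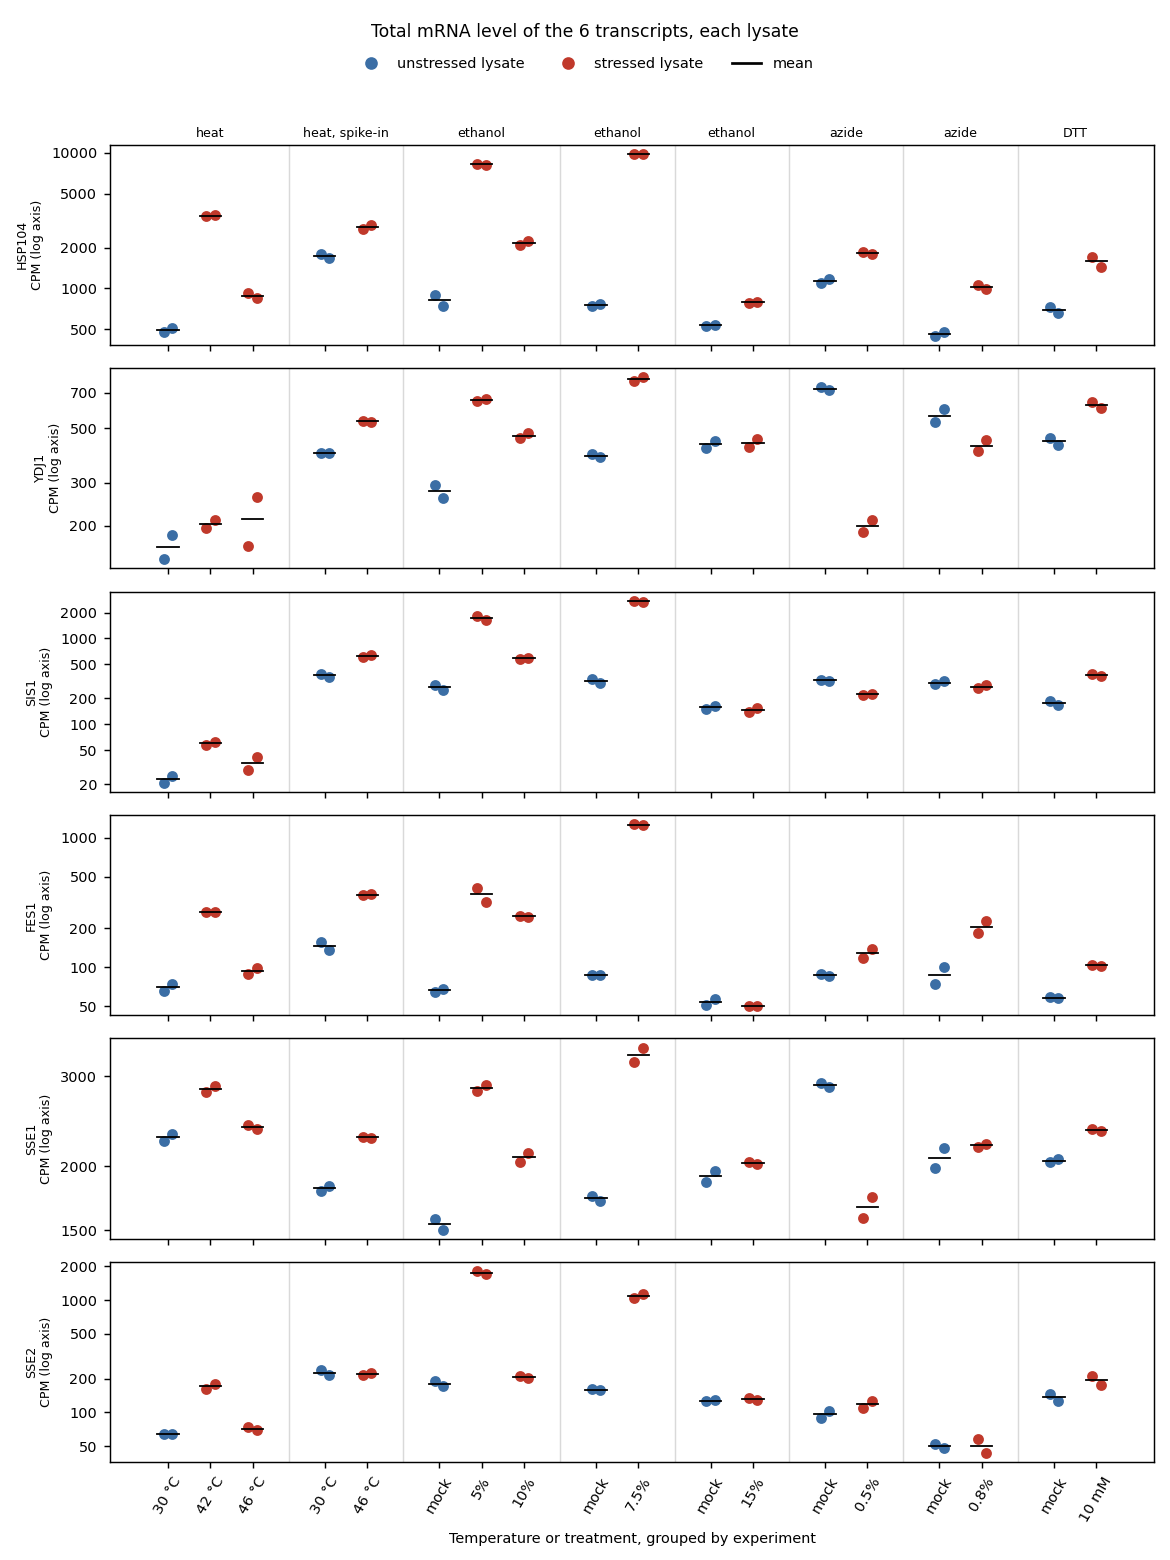
Total mRNA level of the 6 genes, in TMM-normalised CPM on a log axis, 1 point per lysate with the mean as a bar, by experiment and condition. HSP104 sat at 474 and 507 at 30 °C and at 3402 and 3476 at 42 °C in the heat experiment.

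All 6 mRNAs moved into the pellet with heat, as nearly all mRNAs did. The 30 °C lysates held 85.8 and 86.8% of HSP104 in the supernatant, those heated to 42 °C 74.4 and 72%, and those heated to 46 °C 30.2 and 33.7%. For SSE2 the values were 84.9 and 86.4%, 63.9 and 63.1%, and 18.7 and 22.1%. On the log-odds scale all 6 members fell at 42 °C and all 6 at 46 °C, where 99.7% and 100% of all mRNAs were called. The median pSup over all mRNAs was 88.6 and 88.4%, then 58 and 57.2%, then 20.1 and 21.7% in the same order.

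Set against mRNAs of similar length, the changes with heat were toward the soluble side, although few passed the test in this experiment. At 42 °C the changes in relative solubility were 0.83 ± 0.09 for FES1, 0.62 ± 0.10 for HSP104, 0.50 ± 0.09 for SIS1, 0.37 ± 0.08 for SSE2, 0.28 ± 0.08 for SSE1 and 0.01 ± 0.23 for YDJ1, and the median over all mRNAs was 0.00. FES1 alone passed (limma, adjusted p = 0.0259, 1 of 6 members against 0.922% of all mRNAs), with HSP104 just outside at 0.0529. At 46 °C FES1 again passed (0.42 ± 0.09, adjusted p = 0.0411, 1 of 6 against 9.66%), and HSP104 did not (0.43 ± 0.10, adjusted p = 0.0508). Each FES1 call was lost in 5 of the 6 fits that left out 1 lysate (every lysate but 30 °C replicate 2), with adjusted p up to 0.277 at 42 °C without 42 °C replicate 1 and up to 0.188 at 46 °C without 46 °C replicate 1.

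**Figure D2:**
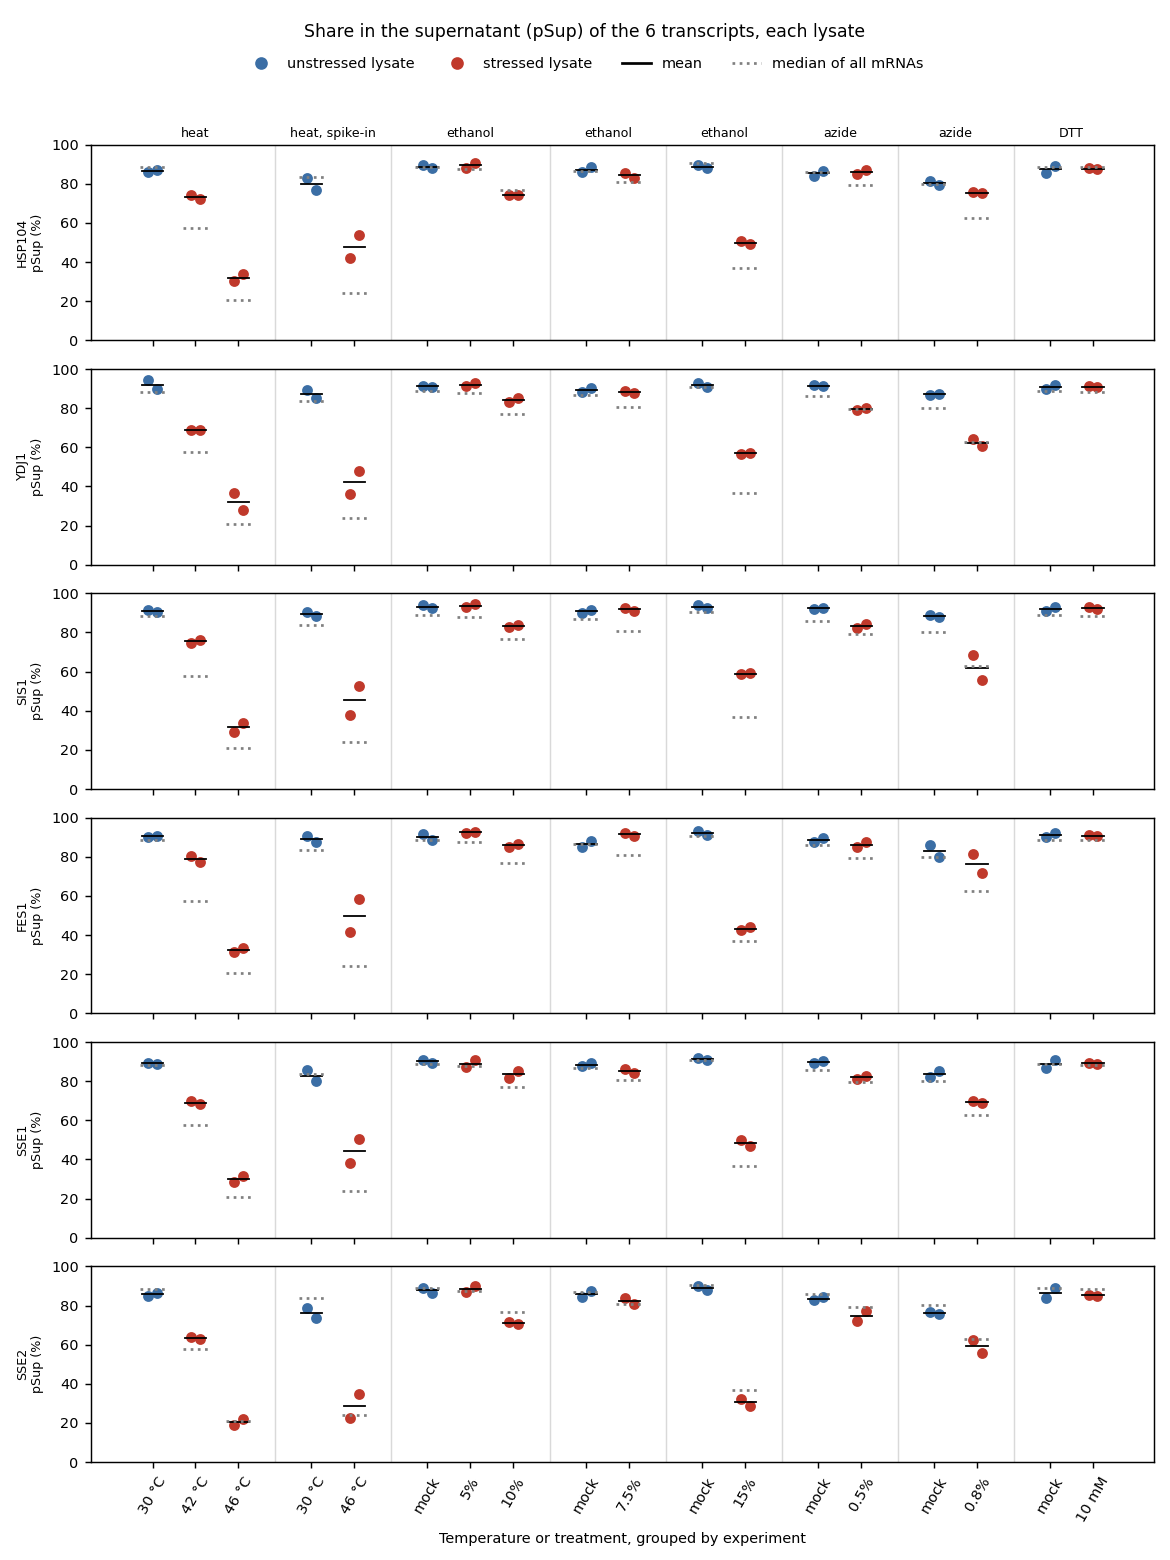
Proportion in the supernatant (pSup, percent) of the 6 mRNAs, 1 point per lysate, by experiment and condition, with the median of all mRNAs dotted. HSP104 fell from 85.8 and 86.8% at 30 °C to 30.2 and 33.7% at 46 °C in the heat experiment.

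In the separate spike-in experiment at 46 °C, all 6 mRNAs gained relative solubility. Unheated lysates had a pSup of 82.8 and 77% for HSP104, heated lysates one of 42.2 and 53.7%, while the median mRNA was at 18.7 and 29.5% at 46 °C. In the 2 heated lysates, 98.2 and 96.1% of mRNAs had a lower pSup than HSP104, against 36.5 and 35.3% at 30 °C. Relative solubility rose by 1.14 ± 0.08 for HSP104 (adjusted p = 0.00605), 0.89 ± 0.07 for SSE1, 0.78 ± 0.07 for FES1, 0.58 ± 0.07 for SSE2, 0.48 ± 0.07 for YDJ1 and 0.43 ± 0.07 for SIS1. That is 6 of 6 members, where 28.1% of all mRNAs were called. YDJ1 missed the threshold without 46 °C replicate 1 (adjusted p = 0.0601), and SIS1 without either heated lysate (0.0639 and 0.0684).

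Abundance rose for 5 of the 6 in the same experiment, against 24.3% of all transcripts. FES1 had the steepest rise, from 157 and 135 to 358 and 370 CPM (log2 1.31 ± 0.05). SIS1 rose by 0.74 ± 0.04, HSP104 by 0.71 ± 0.05, YDJ1 by 0.43 ± 0.04 and SSE1 by 0.33 ± 0.04. SSE2 was the exception, with 237 and 214 CPM at 30 °C, 213 and 223 CPM at 46 °C and overlapping groups (log2 -0.05 ± 0.05, adjusted p = 0.442).

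CHX, given before heat to stop elongation, was compared with mock at 30 and 46 °C. In mock cells at 46 °C, HSP104 again stood out, with pSup of 48.2 and 44.7% against medians of 21.8 and 21.7% over all mRNAs. Its relative solubility rose by 1.25 ± 0.09 (adjusted p = 0.00105), from 0.38 and 0.39 to 1.69 and 1.58. SSE1 (0.71 ± 0.14), FES1 (0.63 ± 0.13), SIS1 (0.48 ± 0.12) and YDJ1 (0.47 ± 0.08) also rose, and SSE2 did not pass (0.43 ± 0.13, adjusted p = 0.0806). This made 5 of 6 members, against 8.44% of all mRNAs. The HSP104 call held in every fit that left out 1 lysate. The other 4 were each lost in 2 to 5 such fits, among them those without 46 °C mock replicate 1 and 30 °C mock replicate 1, with adjusted p up to 0.198 (SIS1).

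After CHX, the same heating gave smaller changes in relative solubility. HSP104 lay at pSup 40.2 and 42% at 46 °C, where the medians were 32.6 and 35.4%. Its change in relative solubility was 0.45 ± 0.09 (adjusted p = 0.0732), and those of the other 5 ran from 0.10 ± 0.13 (FES1) to 0.35 ± 0.12 (SIS1). None of the 6 passed in limma under CHX (3 had an unadjusted p under 0.05), and neither did any of all mRNAs (0%). The difference between the heat responses with and without CHX was -0.80 ± 0.12 for HSP104, lower than in all but 0.791% of mRNAs, with an adjusted p of 0.147, and it passed for 0 of 6 members and 0% of mRNAs (3 members at an unadjusted p under 0.05). At 30 °C CHX changed the relative solubility of 0 of 6 members (-0.12 to 0.05, and 0 unadjusted), again against 0%.

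On the uncentred log-odds scale, where the median mRNA lost 0.91 less with CHX than without, 75.6% of mRNAs passed the same interaction. SIS1 (0.83 ± 0.25, adjusted p = 0.0199) and SSE2 (0.56 ± 0.20, adjusted p = 0.0335) were 2 of the 6 members that passed it, and HSP104 showed -0.05 ± 0.19. With the replicate block YDJ1 joined them (0.59 ± 0.21, adjusted p = 0.0286), 3 of 6 against 85.8% of mRNAs. The SIS1 call was lost in 3 fits without 1 lysate (adjusted p up to 0.0712 without 46 °C mock replicate 2) and that of SSE2 in 6 (up to 0.105 without the same lysate). In the single lysates taken at 42 °C, HSP104 had a pSup of 64.1% in mock cells and 66% with CHX, with relative solubility of 1.64 and 0.78.

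**Figure D3:**
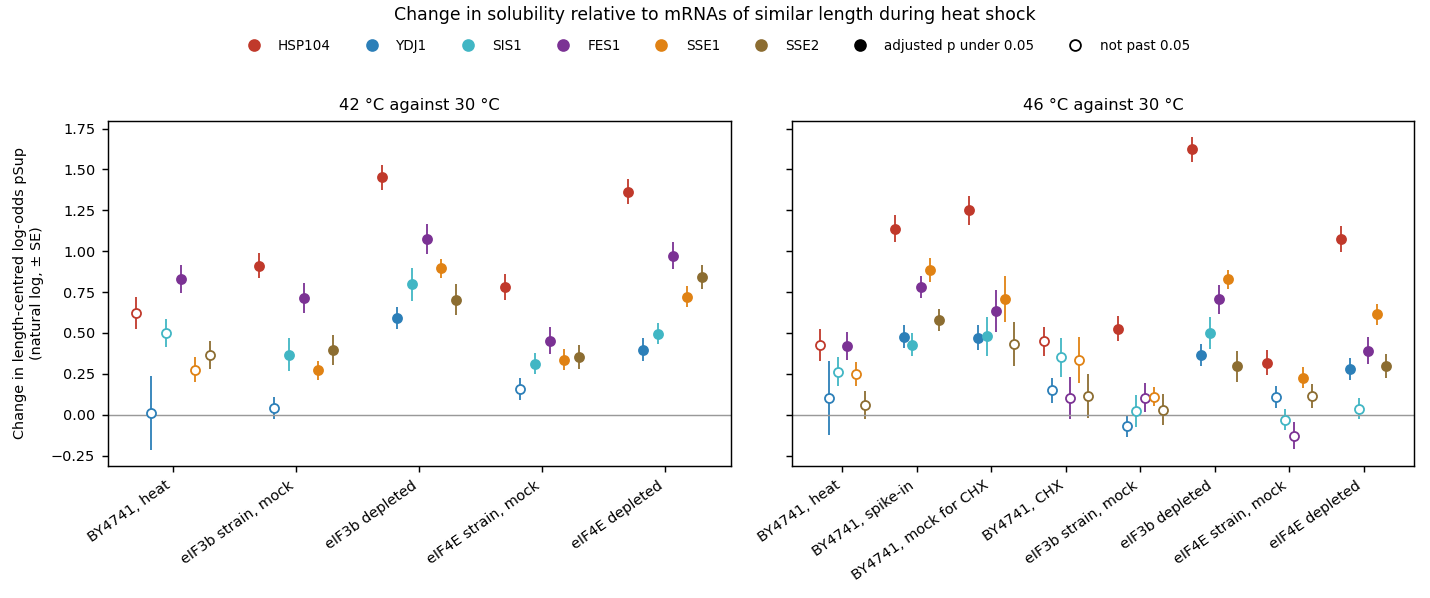
Change in relative solubility (natural log odds of pSup less the mean of mRNAs of similar length) for the 6 genes on heating at 42 °C (left) and 46 °C (right), in each strain and pretreatment. Bars are the standard error, and filled points passed the test. HSP104 at 46 °C lay at 1.14 in the spike-in experiment and 1.25 in mock cells of the CHX experiment.

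The level of all 6 mRNAs was lower after CHX at 30 °C. HSP104 went from 1908 and 1637 CPM to 654 and 644 (log2 -1.45 ± 0.14), and SSE1 from 2446 and 2178 to 965 and 832 (-1.36 ± 0.12). The 6 falls ran from -0.98 (SSE2) to -1.45, and 6 of 6 passed, as did 57.9% of all transcripts. Heating mock cells raised FES1 alone, from 104.8 and 96.6 to 232 and 192 CPM (1.08 ± 0.10, 1 of 6 against 0.878%), and this missed the threshold without 30 °C mock replicate 2 (adjusted p = 0.0615). With the replicate block HSP104 (0.58 ± 0.08, adjusted p = 0.00104), SIS1 (0.52 ± 0.07) and SSE1 (0.17 ± 0.04) passed too, 4 of 6 against 3.53% of transcripts. After CHX, heat changed 0 of 6 in edgeR without the block (0.116% of transcripts, 2 members unadjusted, and FES1 in DESeq2 with an adjusted p of 9.95e-04) and raised 3 of 6 with it (0.596%), namely FES1 (0.79 ± 0.09), SIS1 (0.49 ± 0.07) and HSP104 (0.42 ± 0.08). The difference between the 2 heat responses in level passed for 0 of 6 members (0.0166%, and 0 members unadjusted or in DESeq2) and ranged from -0.29 to 0.18.

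Depletion of eIF3b, a subunit of the initiation factor that brings ribosomes to mRNAs, shifted the levels of the 6 at 30 °C in both directions. SSE1 fell from 2713 and 2676 to 300 and 283 CPM (log2 -3.21 ± 0.08), and YDJ1 from 644 and 613 to 118 and 99.9 CPM (-2.52 ± 0.08). SIS1 (-1.13 ± 0.16), HSP104 (-0.86 ± 0.16) and FES1 (-0.35 ± 0.13) fell less, and SSE2 rose from 101.4 and 127 to 138 and 185 CPM (0.49 ± 0.20). All 6 passed, but so did 79.8% of transcripts. A share of 0.483% of transcripts had a lower value than SSE1. At 30 °C the FES1 call was lost without mock replicate 2, where the estimate was -0.08 (adjusted p = 0.547), or without either depleted lysate, and the estimate was -0.59 without mock replicate 1. The SSE2 call was lost without depleted replicate 2, where the estimate was 0.30 (adjusted p = 0.249), or without mock replicate 1.

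At 30 °C the eIF3b-depleted cells held a smaller share of each mRNA in the supernatant. YDJ1 went from 88.5 and 87.9% to 65.2 and 58.3% pSup, with medians over all mRNAs of 82.1 and 78.3% against 64.2 and 56.7%. Relative solubility fell for YDJ1 (-0.53 ± 0.07), SIS1 (-0.34 ± 0.10) and SSE1 (-0.33 ± 0.06), 3 of 6 against 38.8% of mRNAs. HSP104 (0.15 ± 0.08), FES1 (0.17 ± 0.09) and SSE2 (0.00 ± 0.09) did not pass. The SIS1 call was lost without depleted replicate 1 (adjusted p = 0.127) or without either mock lysate.

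With eIF3b depleted, all 6 mRNAs gained relative solubility on heating, and HSP104 gained the most. At 46 °C the pSup of HSP104 was 24.1 and 26.9% where the median mRNA was at 6.86 and 7.44%, and its relative solubility went from 0.36 and 0.43 at 30 °C to 2.02 and 2.03. That rise of 1.62 ± 0.08 (adjusted p = 8.17e-07) compares with 0.83 ± 0.06 for SSE1, 0.71 ± 0.09 for FES1, 0.50 ± 0.10 for SIS1, 0.36 ± 0.07 for YDJ1 and 0.30 ± 0.09 for SSE2. All 6 of 6 passed at 46 °C, where 53.1% of mRNAs did, and all 6 at 42 °C (HSP104 1.45 ± 0.08, YDJ1 0.59 ± 0.07), where 40.5% did. The SSE2 call at 46 °C was lost without any one of the 4 depleted lysates at 30 and 46 °C (adjusted p up to 0.0952).

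Mock cells of the same strain gave smaller values. At 42 °C HSP104 rose by 0.91 ± 0.08 and FES1 by 0.71 ± 0.09, and SIS1, SSE1 and SSE2 also passed (5 of 6 against 12.1%). Those 3 calls were each lost in 4 or more fits without 1 lysate, with adjusted p up to 0.227 (SIS1, 0.23 without 42 °C mock replicate 2, against 0.37 with all lysates). At 46 °C HSP104 alone passed (0.53 ± 0.08, adjusted p = 0.00217, 1 of 6 against 21.8%). The difference between depleted and mock cells in the response to 46 °C was 1.10 ± 0.11 for HSP104 (adjusted p = 2.08e-04), 0.72 ± 0.08 for SSE1, 0.60 ± 0.13 for FES1, 0.48 ± 0.14 for SIS1 and 0.43 ± 0.10 for YDJ1, 5 of 6 against 31.5% of mRNAs. At 42 °C it passed for SSE1 (0.63 ± 0.08), YDJ1 (0.55 ± 0.10) and HSP104 (0.54 ± 0.11), 3 of 6 against 19.3%. The SIS1 difference at 46 °C was lost in 5 fits without 1 lysate, with adjusted p up to 0.0889 without depleted 30 °C replicate 1.

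Heat at 42 °C still raised these mRNAs after eIF3b depletion. HSP104 went from 530 and 638 to 2086 and 2191 CPM (log2 1.87 ± 0.16) in depleted cells and from 916 and 1197 to 1934 and 2372 (1.03 ± 0.16) in mock cells. In depleted cells SIS1 (1.80 ± 0.16), FES1 (1.52 ± 0.12), YDJ1 (0.88 ± 0.08) and SSE1 (0.87 ± 0.07) also rose, 5 of 6 against 1.32% of transcripts, and the block added SSE2 (0.38 ± 0.06, 6 of 6 against 3.35%). In mock cells HSP104 and FES1 (1.42 ± 0.13) passed, 2 of 6 against 0.869%, and all 6 did with the block (3.33%). The mock HSP104 call was lost without 30 °C mock replicate 1 (adjusted p = 0.0816) or 42 °C mock replicate 2 (0.0745). At 46 °C 0 of 6 passed in edgeR in mock (1.22% of transcripts) or in depleted cells (0.933%), with 2 members at an unadjusted p under 0.05 in each, and DESeq2 called FES1 in mock cells (adjusted p = 0.0194). With the block FES1 rose (0.57 ± 0.11) and SSE2 fell (-0.56 ± 0.08) in mock cells, 2 of 6 against 6.1%.

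The response of SSE1 to 42 °C was larger in depleted than in mock cells (difference 0.67 ± 0.10 on the log2 scale, adjusted p = 0.0122, 1 of 6 against 0.322%). This call was lost in 3 fits, without depleted 30 °C replicate 2 (adjusted p = 0.0865) or either 42 °C mock lysate. With the block SIS1 (1.09 ± 0.11), HSP104 (0.85 ± 0.09) and YDJ1 (0.57 ± 0.08) passed as well, 4 of 6 against 1.85%. At 46 °C the difference passed for 0 of 6 (0.145%, and 0 unadjusted or in DESeq2), and with the block for HSP104 (0.40 ± 0.10) and SSE2 (0.52 ± 0.10), 2 of 6 against 2.8%.

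Depletion of eIF4E, the factor that binds the mRNA cap, moved 3 of the 6 levels at 30 °C, and the strains were not tested against each other. SSE1 fell from 2207 and 2234 to 999 and 818 CPM (-1.29 ± 0.11), YDJ1 from 510 and 502 to 302 and 250 CPM (-0.88 ± 0.11), and SSE2 rose from 122.8 and 97.7 to 234 and 181 CPM (0.90 ± 0.17). These 3 of 6 passed against 57.6% of transcripts, and the block added HSP104 (0.22 ± 0.05) and SIS1 (-0.20 ± 0.06), 5 of 6 against 62.4%. SSE1 and SSE2 thus went opposite ways in both depletions. Relative solubility at 30 °C changed for 0 of 6 members, with values from -0.14 to 0.23, against 8.36% of mRNAs (limma, 2 members unadjusted).

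Among the 6, HSP104 again had the largest gains in relative solubility after heat in the eIF4E strain, although SSE1 stood higher in mock cells at 46 °C (0.91 and 0.92, against 0.77 and 0.76 for HSP104). The relative solubility of HSP104 rose by 1.37 ± 0.08 at 42 °C and by 1.07 ± 0.08 at 46 °C in depleted cells, and by 0.78 ± 0.08 and 0.32 ± 0.08 in mock cells. In depleted cells 6 of 6 members passed at 42 °C (28.1% of mRNAs) and 5 of 6 at 46 °C (34.5%), where SIS1 gave 0.04 ± 0.07. In mock cells 5 of 6 passed at 42 °C (13.5%), with YDJ1 at 0.16 ± 0.07, and HSP104 and SSE1 (0.23 ± 0.06) at 46 °C, 2 of 6 against 23.5%. The mock calls at 46 °C were lost without any one of the 4 mock lysates at 30 and 46 °C (adjusted p up to 0.0848 for HSP104 and 0.15 for SSE1), and the YDJ1 and SSE2 calls in depleted cells at 46 °C without 46 °C depleted replicate 1 (0.0808 and 0.0829) among others. At 42 °C in mock cells the calls of SIS1, FES1, SSE1 and SSE2 did not hold without 42 °C mock replicate 1 or 30 °C mock replicate 2, with adjusted p up to 0.112.

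Depleted and mock cells differed in the response of HSP104 to 46 °C by 0.76 ± 0.11 (adjusted p = 0.0187, 1 of 6 against 2.13%). This was lost in 5 fits without 1 lysate, with adjusted p up to 0.073 without depleted 30 °C replicate 2. At 42 °C the difference was 0.58 ± 0.11 for HSP104 (adjusted p = 0.097), and 0 of 6 passed in limma against 0.0405%, with 5 members at an unadjusted p under 0.05.

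Levels in the eIF4E strain rose at 42 °C and mostly not at 46 °C. In depleted cells at 42 °C FES1 went from 77.9 and 55.9 to 244 and 202 CPM (log2 1.74 ± 0.15), HSP104 from 1400 and 1037 to 3014 and 2400 (1.15 ± 0.18), and SIS1 (1.14 ± 0.18), YDJ1 (0.55 ± 0.11) and SSE1 (0.46 ± 0.11) also rose, 5 of 6 against 3.57%. The block added SSE2 (0.21 ± 0.04), 6 of 6 against 8.47%. In mock cells FES1 (1.32 ± 0.15) and HSP104 (0.82 ± 0.18) passed, 2 of 6 against 1.72%, and with the block YDJ1, SIS1 and SSE2 too, 5 of 6 against 4.59%. The HSP104 call in mock cells was lost without any one of the 4 mock lysates at 30 and 42 °C (adjusted p up to 0.283 without 30 °C replicate 2), the YDJ1 call in depleted cells without 30 °C depleted replicate 2 (0.117) or 42 °C depleted replicate 1 (0.103), and the SSE1 call in 8 of the fits (up to 0.27).

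At 46 °C SSE2 fell in eIF4E-depleted cells, from 234 and 181 to 120 and 98.9 CPM (-0.91 ± 0.17, adjusted p = 0.00554, 1 of 6 against 5.7%). The call was lost without 46 °C depleted replicate 2 (adjusted p = 0.0828) or 30 °C depleted replicate 1 (0.0685). With the block HSP104 (-0.34 ± 0.05) fell and FES1 (0.51 ± 0.07) rose as well, 3 of 6 against 11.6%. In mock cells 0 of 6 passed in edgeR (2.95%, 2 members unadjusted, and SSE2 in DESeq2 with an adjusted p of 0.0308), and with the block FES1 rose (0.41 ± 0.08) while HSP104 (-0.37 ± 0.05) and SSE2 (-0.59 ± 0.06) fell, 3 of 6 against 6.93%. Depleted and mock cells differed in neither heat response for any member without the block (0 of 6 against 0% at 42 °C and 0.0341% at 46 °C, with 1 and 0 members unadjusted and 0 in DESeq2), and with it SIS1 passed at 42 °C (0.57 ± 0.08, adjusted p = 0.0035, 1 of 6 against 0.239%).

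Ethanol at 5, 7.5 and 10% raised all 6 mRNAs, and at 15% HSP104 alone passed. The doses come from 3 experiments with their own mocks, and they are set side by side without a test between them. HSP104 went from 894 and 735 CPM to 8251 and 8190 at 5% ethanol, from 743 and 765 to 9795 and 9854 at 7.5%, to 2099 and 2229 at 10% (same mock as 5%), and from 525 and 539 to 782 and 792 at 15%. The log2 changes were 3.34 ± 0.09, 3.70 ± 0.08, 1.41 ± 0.09 and 0.57 ± 0.05.

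The exchange factors FES1 and SSE2 differed most at 10% ethanol. SSE2 rose by 3.29 ± 0.07 at 5% and 2.77 ± 0.07 at 7.5%. It rose by only 0.20 ± 0.07 at 10%, from 189 and 171 CPM in mock to 212 and 202 CPM. FES1 rose by 2.46 ± 0.11, 3.85 ± 0.07 and 1.89 ± 0.10, from 87 and 87.5 to 1269 and 1239 CPM at 7.5%. All 6 members passed at 5% (69.8% of transcripts), at 7.5% (56.4%) and at 10% (49.9%), and at 15% HSP104 alone did, 1 of 6 against 19.7%. The SSE2 call at 10% was lost in 3 fits without 1 lysate (0.13 and an adjusted p of 0.176 without mock replicate 2). The third exchange factor, SSE1, rose by 0.94 ± 0.07 at 7.5% and 0.44 ± 0.06 at 10%. YDJ1 and SSE1 rose least at 5%, by 1.24 ± 0.07 and 0.89 ± 0.06, and SIS1 rose by 2.68 ± 0.08.

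All 6 mRNAs gained relative solubility at 7.5% ethanol, and at 5% no gain passed. At 7.5% ethanol the pSup of HSP104 was 85.8 and 83%, against 85.8 and 88.4% in mock, while the median over all mRNAs went from 85.4 and 88.1% to 82.1 and 79.5%. Relative solubility rose for 6 of 6 members (44% of mRNAs), by 0.76 ± 0.06 for FES1, 0.63 ± 0.07 for HSP104, 0.53 ± 0.06 for SIS1, 0.44 ± 0.06 for SSE2, 0.42 ± 0.07 for SSE1 and 0.35 ± 0.07 for YDJ1. YDJ1 missed the threshold without mock replicate 2 (adjusted p = 0.0633). At 5% none passed in limma, 0 of 6 against 0.513% (3 members unadjusted). At 10% FES1 alone did (0.41 ± 0.07, 1 of 6 against 11.4%), although all 6 members had an unadjusted p under 0.05. The changes at 10% went both ways, from -0.19 to 0.41. The FES1 call was lost in every fit without 1 of its 4 lysates, with an estimate of 0.47 without mock replicate 1.

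At 15% ethanol, which moved most mRNA into the pellet, the members diverged. HSP104 (0.78 ± 0.05), YDJ1 (0.65 ± 0.06), SIS1 (0.58 ± 0.05) and SSE1 (0.42 ± 0.05) gained relative solubility, 4 of 6 against 40.4% of mRNAs. FES1 (0.03 ± 0.07) and SSE2 (-0.09 ± 0.06) did not pass. The pSup of SIS1 was 58.7 and 59.2% and that of SSE2 32.4 and 28.6%, around medians over all mRNAs of 37.4 and 36.1%.

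Azide, which blocks respiration and lowers cellular ATP, split the 6 by level. At 0.8%, HSP104 went from 447 and 478 to 1052 and 989 CPM (log2 1.14 ± 0.07) and FES1 from 74.5 and 101.3 to 183 and 227 (1.22 ± 0.16), while YDJ1 fell from 529 and 597 to 402 and 447 (-0.41 ± 0.08). These 3 of 6 passed against 40.3% of transcripts, and the YDJ1 call was lost without mock replicate 2 (adjusted p = 0.0852). At 0.5% YDJ1 fell from 736 and 716 to 188 and 211 CPM (-1.86 ± 0.07), SSE1 (-0.80 ± 0.06) and SIS1 (-0.55 ± 0.06) also fell, and HSP104 (0.68 ± 0.06), FES1 (0.56 ± 0.09) and SSE2 (0.29 ± 0.09) rose, 6 of 6 against 70.8%. The SSE2 call was lost without mock replicate 1 or azide replicate 2 (adjusted p = 0.109 and 0.0896, with estimates of 0.20 and 0.17). The 2 azide doses are from separate experiments with different library preparation, and dose and experiment cannot be told apart.

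Under azide the members went different ways in relative solubility. The J-domain mRNAs lost it at 0.8% (YDJ1 -0.56 ± 0.11, SIS1 -0.62 ± 0.13, 2 of 6 against 11.2% of mRNAs), and at 0.5% (YDJ1 -0.55 ± 0.07, SIS1 -0.43 ± 0.06) together with SSE1 (-0.27 ± 0.05), whereas HSP104 gained 0.36 ± 0.05, making 4 of 6 against 24.9%. The pSup of SIS1 was 89 and 87.9% in mock and 68.3 and 55.7% at 0.8% azide. The groups did not overlap, and the azide lysates lay further from each other than the mock lysates did. All 4 calls at 0.5% were lost without any one of the 4 lysates (adjusted p 0.057 to 0.107). At 0.8% the YDJ1 call was lost without mock replicate 2 (0.123) or azide replicate 1, and the SIS1 call without mock replicate 2 (0.113) or azide replicate 2.

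DTT, a reductant that disturbs protein folding in the endoplasmic reticulum, raised all 6 levels, and no change in their relative solubility passed the test. HSP104 went from 734 and 659 to 1715 and 1443 CPM (log2 1.18 ± 0.08), SIS1 rose by 1.07 ± 0.06, FES1 by 0.84 ± 0.06, SSE2 by 0.51 ± 0.09, YDJ1 by 0.49 ± 0.05 and SSE1 by 0.20 ± 0.04, 6 of 6 against 50.4% of transcripts. HSP104 had a pSup of 85.6 and 89.2% in mock and 88 and 87.4% in DTT, with overlapping groups. Relative solubility passed in limma for 0 of 6 members (0 unadjusted) and 0% of mRNAs, with values from -0.09 ± 0.05 (SSE2) to 0.07 ± 0.04 (SIS1).

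In the Polysome-seq lysates, heat raised the same mRNAs by far more than in the heated pellets of Sed-seq. Cells there were collected by filtration and heated in prewarmed medium, and the method of heating, the sequencing and the culture cannot be told apart as sources of that difference. HSP104 went from 276 and 306 CPM in unheated lysates to 23270 and 20620 CPM after 42 °C, and it was 5012 and 6859 CPM after 46 °C. The log2 changes were 6.24 ± 0.22 and 4.35 ± 0.20. All 6 rose at 42 °C (73.5% of transcripts called) and at 46 °C (41.1%), where FES1 gave 3.89 ± 0.20, SIS1 3.51 ± 0.22, SSE2 2.04 ± 0.22, SSE1 0.79 ± 0.14 and YDJ1 0.67 ± 0.13. YDJ1 missed the threshold at 46 °C without 30 °C replicate 1 (adjusted p = 0.0545).

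Ribosome occupancy, the share of a transcript in ribosome-bound fractions, lay below the median mRNA for HSP104 and SSE2 at 46 °C and above it for the other 4. HSP104 had an occupancy of 90.7 and 89% in unheated lysates, 85.8 and 86.8% after 42 °C, and 78.9 and 79.5% after 46 °C. SSE2 had 90 and 90%, 86.9 and 87.9%, and 76.3 and 78.1%. The median over all mRNAs was 83.6 and 84.9%, then 74.6 and 78.7%, then 84.2 and 85.5%. At 46 °C only 26.4 and 24.8% of mRNAs had a lower occupancy than HSP104, against 82.4 and 69.7% at 30 °C. FES1 went the other way, from 86.3 and 85.5% to 90 and 92% after 42 °C, with 89.9 and 90.9% after 46 °C. Occupancy is given without a test. Per the study's methods, condensed RNA of stressed cells may reach the bottom of the gradient, so occupancy in the heat, azide and ethanol lysates may not be an absolute bound share.

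**Figure D4:**
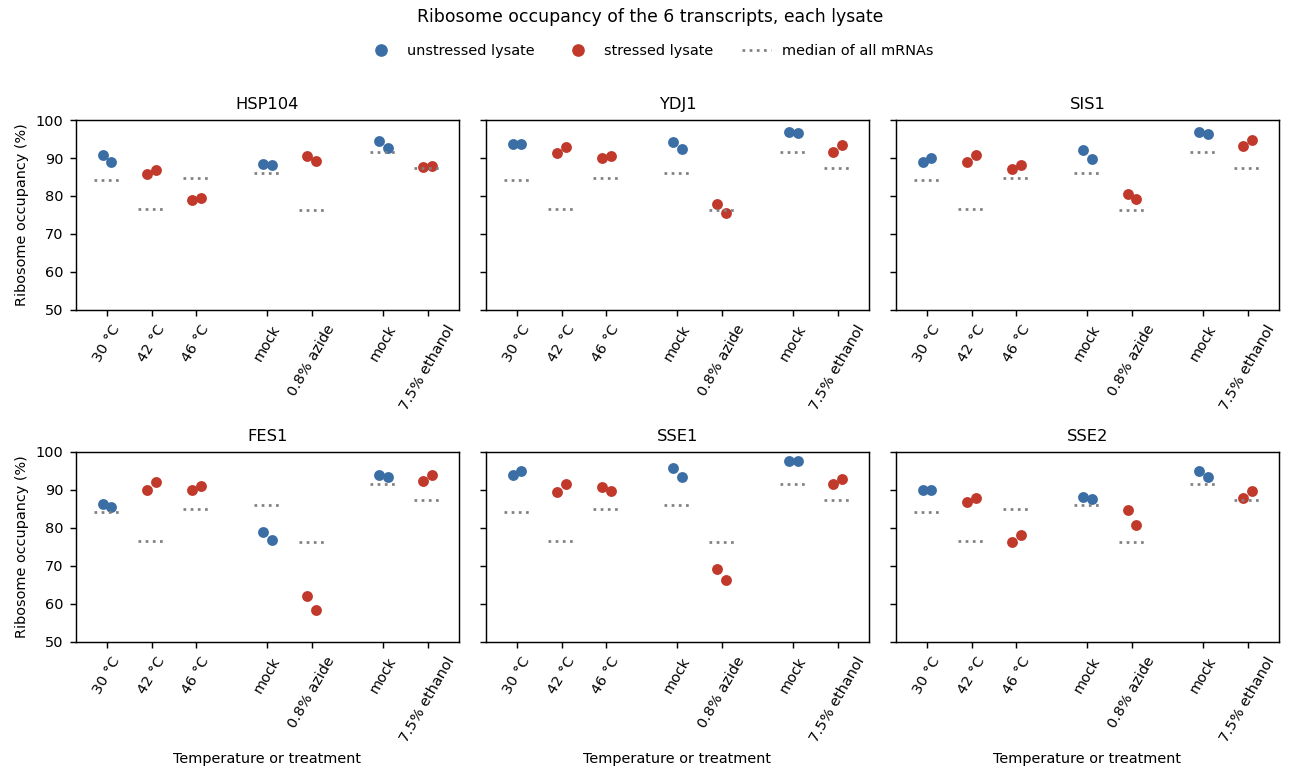
Ribosome occupancy (percent of a transcript in ribosome-bound fractions) of the 6 mRNAs, 1 point per lysate, in the 3 Polysome-seq experiments, on an axis from 50 to 100%. HSP104 went from 90.7 and 89% at 30 °C to 78.9 and 79.5% at 46 °C, and SSE1 from 95.8 and 93.4% in mock to 69.1 and 66.4% in azide.

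A second measure, the change in polysome counts relative to Total counts in one model (3 or more ribosomes in the heat experiment), rose for 5 of 6 members at 46 °C, where 52.3% of transcripts were called and the median change was 0.26 on the log2 scale. The values were 1.16 ± 0.23 for FES1, 1.05 ± 0.29 for SIS1, 0.85 ± 0.17 for YDJ1, 0.84 ± 0.18 for SSE1, 0.73 ± 0.23 for HSP104 and 0.28 ± 0.30 for SSE2, which did not pass. At 42 °C YDJ1 (0.64 ± 0.17) and FES1 (0.74 ± 0.22) passed, 2 of 6 against 18.2% (median change 0.11). This measure is scaled within each kind of library and so differs in scale from occupancy, and at 46 °C the 2 differ in sign for all but FES1. From 30 to 46 °C the occupancy of YDJ1 went from 93.7 and 93.8% to 90.1 and 90.6%, that of SIS1 from 88.9 and 90.1% to 87.1 and 88%, and that of SSE1 from 94 and 94.8% to 90.8 and 89.8%. Both 42 °C calls were lost without any one of the 4 lysates at 30 and 42 °C (adjusted p up to 0.266 for YDJ1 and 0.242 for FES1), and at 46 °C the HSP104 call was lost without either 30 °C lysate (0.122 and 0.0731), that of SIS1 without 46 °C replicate 1 (0.0512) and that of SSE1 without 30 °C replicate 1 (0.0675).

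Under 0.8% azide, the occupancy of HSP104 stayed near that in mock while the median over all mRNAs was lower. Its occupancy was 88.5 and 88.3% in mock and 90.4 and 89.3% in azide, while the median mRNA went from 87.1 and 84.9% to 76.8 and 75.8%. SSE1 went from 95.8 and 93.4% to 69.1 and 66.4%, YDJ1 from 94.3 and 92.3% to 77.8 and 75.6%, and FES1, already low in mock at 78.9 and 76.7%, to 62 and 58.4%. In the azide and ethanol experiments, the counts called polysome here come from a pool of all ribosome-bound fractions, monosomes included. Relative to Total they rose for HSP104 (0.74 ± 0.08, edgeR adjusted p = 1.72e-04) and FES1 (0.38 ± 0.07), 2 of 6 against 14.3%. The estimates of SSE2 (0.37 ± 0.12), SSE1 (0.24 ± 0.08) and SIS1 (0.17 ± 0.06) did not pass. Occupancy was lower in azide for SIS1 (92.1 and 89.8% to 80.6 and 79.2%) and SSE2 (88.1 and 87.5% to 84.6 and 80.7%) as well, so the 2 measures differ in sign for FES1, SSE1, SSE2 and SIS1. For YDJ1, at -0.01 ± 0.08, polysome counts relative to Total gave a value near 0. FES1 missed the threshold without either azide lysate (adjusted p = 0.0702 and 0.0668).

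In the same azide lysates, Total levels rose for HSP104 (588 and 631 to 842 and 896 CPM, 0.51 ± 0.05) and FES1 (1.24 ± 0.04) and fell for YDJ1 (-0.32 ± 0.04), 3 of 6 against 42.7%. Under 7.5% ethanol all 6 rose (57.7% of transcripts), with HSP104 at 3.92 ± 0.19 and YDJ1 at 0.45 ± 0.09. Ethanol changed polysome counts relative to Total for 0 of 6 members in edgeR (1 unadjusted, 0 in DESeq2), with values from -0.10 ± 0.31 (HSP104) to 0.20 ± 0.09 (FES1), against 1.77% of transcripts. HSP104 occupancy there went from 94.5 and 92.6% without ethanol to 87.7 and 87.8% with it, beside medians of 91.9 and 91.4% and of 86.3 and 88.2%.

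The partners of these proteins in the Hsp70 and Hsp90 systems gave a range of changes in level in the heat experiment at 42 °C. Over all transcripts 5.72% rose and 0.93% fell in this contrast. Of 7 cytosolic Hsp70 genes, 4 rose and 0 fell (median log2 0.36), with SSA4 at 5.41 ± 0.07. Of 10 other cytosolic J-domain genes, 1 rose (APJ1, 2.79 ± 0.06) and 1 fell (DJP1, -0.31 ± 0.07). Among 10 genes of Hsp90 and its adaptors 4 rose, HSP82 by 1.87 ± 0.05 and STI1 by 1.06 ± 0.04. All 4 small heat shock and sequestrase genes rose (median 4.04), and of 4 mitochondrial counterparts 2 did, HSP78, the mitochondrial relative of HSP104, by 3.49 ± 0.08. Of 5 genes of the endoplasmic reticulum KAR2 rose (0.85 ± 0.06).

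Under 7.5% ethanol 4 of the 7 cytosolic Hsp70 genes rose, with SSA4 at 5.53 ± 0.14 and SSA2 at 1.21 ± 0.09, and 6 of 10 Hsp90 genes, with HSP82 at 3.03 ± 0.09, where 28.2% of all transcripts rose and 28.2% fell. The J-domain gene APJ1 (4.74 ± 0.08) rose in the company of 3 others of its list of 10, and XDJ1 fell (-0.49 ± 0.10). In relative solubility at 46 °C in the spike-in experiment, 6 of 7 cytosolic Hsp70 genes rose with a median change of 1.00, and 5 of 10 J-domain genes rose and 1 fell with a median of 0.22, beside a median of -0.01 over all mRNAs, of which 15.2% rose and 12.9% fell.

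Across the 70 Total libraries of the Sed-seq experiments other than the reporter strains, with each library set against the unstressed mean of its own experiment, the transcript whose log2 level was most like that of HSP104 was HSP78 (Pearson's r = 0.95, over 4906 candidates), then HSP42 (0.93) and HSP26 (0.93). For SIS1 they were HSP82 (0.93), HSP104 (0.92) and MDJ1 (0.92), and for FES1 ATG41 (0.94), HSP78 (0.94) and APJ1 (0.94). YDJ1 was closest to HSP60 (0.98), HSP10 (0.96) and SSC1 (0.94), and SSE1 to SSA2 (0.98), PGK1 (0.97) and ENO2 (0.96). SSE2 was closest to OPI10 (0.93), IML2 (0.87) and GRE3 (0.87), and its r with its paralog SSE1 was -0.15. These values describe the libraries, which share experiments and controls.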

How the data were processed

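Sed-seq covered 77 lysates and Polysome-seq 14. Per the labels and methods, the authors trimmed reads with Trim Galore 0.6.10, mapped them to R64 with STAR 2.7.10b, used UMI-tools 1.1.4 to remove duplicates where libraries carried molecular identifiers, and counted with kallisto 0.48.0, keeping strand. The heat and several other experiments had no such identifiers, so their counts can hold PCR duplicates. The deposited tables hold estimated counts, which were rounded to whole numbers here, and TPM. For these genes TPM is scaled to the length of the open reading frame. The authors gave pSup as a fraction, from supernatant and pellet counts weighted by fitted mixing ratios, and the deposited mixing ratio values were checked to give it back. Occupancy is the ribosome-bound share of signal that the authors scaled to S. pombe spike-in transcripts.

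Counts were normalised by TMM and tested with edgeR 4.0.16 (quasi-likelihood), and pSup on log odds with limma 3.58.1, in R 4.3.3, with p-values adjusted by Benjamini-Hochberg over all features and called below 0.05. For edgeR, SE is the estimate divided by the root of F. pSup needed at least 20 supernatant plus pellet counts, and relative solubility subtracted the mean within a window of 0.02 of the log-length range. Self-made scripts were tested on simulated data. Each depth limits precision as the counts allow, and p-values measure the spread between the lysates labelled as biological replicates. All samples of an experiment entered its fit. This includes the single lysates at 42 °C of the CHX experiment, on which no contrast was drawn. The reporter strains (1 lysate each) were not fitted. The members, the pathway lists and the rule for named genes (the 6 members, the called list members with the largest changes, and the 3 most alike transcripts) were chosen with earlier results of these data known.

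Replicate numbers were shared between groups. Deviations of same-numbered lysates correlated above 0.1 in every pair for Total levels in the heat (0.18 to 0.28), CHX (0.51 to 0.82), eIF3b (0.28 to 0.55) and eIF4E (0.12 to 0.44) experiments and for log odds in CHX (0.11 to 0.59). The 1 pair at 0.8% azide was also above 0.1, for Total levels (0.29), relative solubility (0.22) and log odds (0.23). So was the 1 pair for Total levels in azide (0.13) and ethanol (0.19) Polysome-seq and for log odds under DTT (0.11). Blocked values stand there, or in the closing section, where calls change. Alternatives were DESeq2 1.42.0 and its size factors, other count filters, smaller fits, the block and leaving out each lysate.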

Additional observations from a re-analysis of the deposited data

Results flagged for a closer look

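A set of 12 responses differed between arms of an experiment by an interaction test. On the log odds of pSup, the effect of 46 °C differed with CHX by 0.83 for SIS1 and 0.56 for SSE2. That was 2 of 6 members against 75.6% of mRNAs, and both lay below the median of 0.91 over all mRNAs. For the Total level, the effect of 42 °C on SSE1 differed with eIF3b depletion by 0.67 on the log2 scale, 1 of 6 against 0.322% of transcripts. In relative solubility, eIF3b depletion changed the response to 42 °C by 0.54 for HSP104, 0.55 for YDJ1 and 0.63 for SSE1, 3 of 6 against 19.3% of mRNAs. It changed the response to 46 °C by 1.10 for HSP104, 0.43 for YDJ1, 0.48 for SIS1, 0.60 for FES1 and 0.72 for SSE1, 5 of 6 against 31.5%. In the eIF4E strain the response of HSP104 to 46 °C differed by 0.76, 1 of 6 against 2.13% of mRNAs. Leaving out 1 lysate lost, in some fits, the calls of SIS1 and SSE2 with CHX and of SSE1 in level. It also lost those of SIS1 at 46 °C with eIF3b depletion and of HSP104 with eIF4E depletion. Causes were not tested.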

How the results depend on the processing

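No member's call reversed under any alternative. Counts below are calls over the 6 members and all contrasts of an experiment. They describe how stable the members' calls were, and a share over all features stands beside them only where stated. For relative solubility in the heat experiment, the count was 2, against 5 with a minimum of 100 counts, 0 when only the groups compared were fitted and 0 with the replicate block. With the block, Total calls went from 7 to 13 (CHX), 14 to 26 (eIF3b), 11 to 23 (eIF4E) and 1 to 3 (15% ethanol), log-odds calls at 7.5% ethanol from 1 to 0, and polysome counts relative to Total under azide from 2 to 5. That last count was 4 over nuclear protein-coding genes alone, an alternative chosen after seeing the data. The share called over all features was higher with the block too, in the contrasts where the blocked share is given above. For Total levels at 46 °C in mock cells it went from 0.878 to 3.53% (CHX) and from 1.22 to 6.1% (eIF3b). A higher count with the block is thus not particular to the members. For relative solubility in the CHX experiment, 5 of 6 pairs were above 0.1. There the block added SSE2 in mock cells (limma, adjusted p = 0.0206) and HSP104 under CHX (0.0296) at 46 °C. In the eIF3b experiment 7 of 15 pairs were above 0.1 for relative solubility, and in the eIF4E experiment 1 of 15. The block added SIS1 (limma, adjusted p = 0.022) and FES1 (0.0453) to the eIF3b difference in response to 42 °C, 5 of 6 in place of 3. It added FES1 (0.0325) to the eIF4E difference at 46 °C, 2 in place of 1. At 0.8% azide, where the 1 pair was above 0.1, it added FES1 (0.00782), 3 in place of 2. Total calls at 0.8% azide went from 3 to 4 with the block, in Sed-seq and in Polysome-seq. Where the share of all features called with the block is not given above, added calls cannot be read as particular to the members.

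Leaving out each lysate in turn gave, for Total levels, 6 to 9 (heat), 6 to 8 (CHX), 11 to 15 (eIF3b), 9 to 11 (eIF4E), 5 to 6 (0.5% azide), 2 to 3 (0.8% azide), 11 to 12 (5 and 10% ethanol), 11 to 12 (heat, Polysome-seq) and 3 to 4 (azide, Polysome-seq). For relative solubility it gave 0 to 6 (heat), 4 to 6 (spike-in), 1 to 5 (CHX), 25 to 30 (eIF3b), 12 to 24 (eIF4E), 0 (0.5% azide), 0 to 3 (0.8% azide), 0 to 1 (5 and 10% ethanol) and 5 to 6 (7.5% ethanol). For log odds it gave 3 to 6 (spike-in), 12 to 15 (CHX), 25 to 29 (eIF3b), 19 to 22 (eIF4E), 2 to 5 (0.8% azide), 4 to 6 (5 and 10% ethanol), 0 to 1 (7.5% ethanol) and 0 to 1 (DTT). Polysome counts relative to Total gave 3 to 9 (heat) and 1 to 2 (azide). No share over all features is set beside these counts, so a change in them cannot be read as particular to the members. The cause was not tested.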
